A study of Mus musculus with 4 samples.

Results

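Lipogenesis and lipid droplet genes are the genes with which the liver makes fatty acids, joins them to glycerol as triglyceride and stores them in droplets. A list of 38 such genes was followed by gene symbol in the read counts of 4 pools of hepatic RNA, and all 38 were found among the 27027 entries counted. Of these, 36 reached a mean of 10 normalised reads over the 4 pools and were compared with the 12113 entries that did so. Plin4 and Cidea stayed below that level and are given by their reads. The genes are listed by function, and no count enters the rule that picks them, but the list was drawn up with earlier results of these data known.

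The pools came from male C57BL/6J mice, an inbred wild-type strain, aged 9 to 12 weeks. All mice were fasted for 10 h overnight, then injected intraperitoneally with 0.9% NaCl (control) or with acetaminophen (APAP) at 300 mg/kg, and had free access to food and water afterwards. At that dose APAP injures the liver, and the series asks which genes change while the injury resolves, at 24 h and at 48 h. Each control pool held RNA of 6 mice and each APAP pool RNA of 7 mice in equal shares, and each pool gave 1 library by massive analysis of cDNA ends (MACE), which counts reads near the ends of polyadenylated mRNA. Between 4859661 and 5698778 reads were counted per library. With 1 library per group the folds at a single time point carry no test. Treatment was tested over all 4 pools, with the time points taken as replicates. A normalised read count is the count divided by the size factor of its library, a fold is APAP over control at the same hour, and a gene is called lower or higher at a fold of at least 2. Pairs of values give the pool of 24 h first and that of 48 h second. The interval behind a fold is an exact 95% interval (Clopper-Pearson) that covers counting error only, and not the spread between mice or between pools.

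Lipogenesis starts from citrate that leaves the mitochondria and is cleaved to acetyl-CoA. Acetyl-CoA carboxylase makes malonyl-CoA from it, fatty acid synthase builds palmitate, and elongases and desaturases turn palmitate into longer and unsaturated fatty acids. In the liver the genes of this chain are switched on together by insulin and carbohydrate after a meal, through SREBP-1c (Srebf1), LXRα (Nr1h3) and ChREBP (Mlxipl), and are low in fasting. Perilipins and CIDE proteins sit on the lipid droplet, where they shield or enlarge it.

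Most genes of fatty acid synthesis, elongation and desaturation were lower by 2-fold or more at 24 h as well as at 48 h after APAP, whereas 0 of the 4 droplet coat genes tested were. At 24 h, 20 of the 36 genes (55.6%) were at least 2-fold lower, against 5.68% of all entries tested, and 1 gene, Cidec, was at least 2-fold higher, against 5.85% of all entries. At 48 h, 20 of 36 were again at least 2-fold lower (5.61% of all entries) and 0 were at least 2-fold higher (5.76% of all entries). Lower at both time points were 17 of 36 (47.2%), against 2.4% of all entries. These were Acly, Acss2, Aacs, Acaca, Acacb, Fasn, Me1, Scd1, Elovl3, Elovl5, Elovl6, Fads1, Thrsp, Mid1ip1, Acsl5, Gpam and Pnpla3. Over the 36 genes the log2 fold had a median of -1.23 at 24 h and -1.20 at 48 h, beside 0.01 and -0.02 over all entries tested. With the 5-fold threshold that the study used for induced genes, 11 of 36 were lower at 24 h (0.636% of all entries) and 11 at 48 h (0.768% of all entries).

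Over both time points, edgeR's quasi-likelihood test of the 2 APAP pools against the 2 control pools called 23 of the 36 genes lower (63.9%) and 0 higher at an adjusted p under 0.05 (Benjamini-Hochberg over all entries tested), against 4.29% of all entries lower and 2.15% higher. At an unadjusted p under 0.05 in that test, 28 were lower and 1 was higher, beside 2470 of the 12113 entries in either direction. With the time point as a term, which leaves 1 residual degree of freedom, 27 were lower and 1, Cidec, was higher, against 8.42% and 4.9% of all entries. The adjusted p of edgeR without that term was 3.31e-05 for Thrsp, 6.54e-05 for Fasn and 0.000675 for Scd1. The 13 genes that did not pass it were Scd2, Elovl1, Srebf1, Nr1h3, Acsl3, Lpin1, Lpin2, Dgat1, Pnpla2, Plin2, Plin5, Cideb and Cidec. The pools differ in time as well, so the spread in this test holds both pool and time.

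Read by the 4 pools alone, 29 of the 36 genes had both APAP pools below both control pools, which 26.3% of all entries tested had too. Pnpla2 and Cidec had both APAP pools above both control pools, as 24.8% of all entries did. The groups overlapped for the other 5 genes, namely Scd2, Lpin1, Dgat1, Plin2 and Plin5. Of all reads, the 38 genes took 1.19% in controls of 24 h and 1.63% in controls of 48 h, but 0.352% and then 0.349% after APAP. The 2 control pools differed from each other mostly through Scd1. Without Scd1 the shares were 0.867% and 0.840% in controls and 0.297% and 0.286% after APAP.

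In RNA of whole liver, fewer cells of a type and less RNA per cell cannot be told apart. Hepatocyte markers stayed at a summed level of 516364 to 567136 normalised reads in the 4 pools, and 0 of the 9 measured were 2-fold lower at either time point. Alb alone gave 207153 to 241302 of these reads. Single markers moved both ways at 24 h, when Fgb was 2.70-fold higher and Ttr 1.78-fold lower. Markers of pericentral hepatocytes, the zone in which APAP is activated and does its damage, were lower together with the lipogenic genes. Of 9 tested, 7 were at least 2-fold lower at each time point, their log2 folds had medians of -2.00 and -1.66, and the summed level of all 10 went from 16065 and 17248 normalised reads in the control pools to 6797 and 5157 after APAP. Glul, the glutamine synthetase of the innermost pericentral cells, was 9.32-fold lower at 24 h and 11.8-fold lower at 48 h. The 10 periportal markers had medians of -0.07 and 0.10 and summed to 32829 and 40514 normalised reads in controls and 23792 and 34902 after APAP. They were split, with 3 at least 2-fold lower and 1 higher at 24 h, and 1 lower and 1 higher at 48 h. Myeloid markers summed to 728 and 766 normalised reads in controls and to 974 and 1622 in the APAP pools. Stellate cell markers summed to 493 and 519 in controls and 628 and 1115 after APAP, endothelial markers to between 975 and 1116 in every pool, and cholangiocyte markers to 143 and 183 in controls and 398 and 307 after APAP. Most of that last sum was Sox9 (65.9 and 74.0 in controls, 261 and 132 after APAP) and Spp1 (59.1 and 74.0, then 112 and 158). The other cholangiocyte markers, Krt19, Krt7, Epcam and Cftr, did not reach a mean of 10 normalised reads. Of 10 adipocyte markers, Adipoq, Retn and Ucp1 had no entry among those counted. The other 7 summed to 98.9 and 112 in controls and 121 and 155 after APAP, and only Fabp4 and Lipe reached a mean of 10 normalised reads. Plin1 had at most 2 reads, and Lep and Cfd at most 1 read, in any library. Fabp4, which macrophages express too, had 42.1 and 54.7 normalised reads in controls and 75.8 and 116 after APAP, a fold of 1.80 (1.22 to 2.72) and 2.13 (1.52 to 3.01), and Lipe had 47.7 and 45.0 in controls and 37.5 and 30 after APAP. The part of these cell types in the lower lipogenic counts was not tested.

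**Figure D1:**
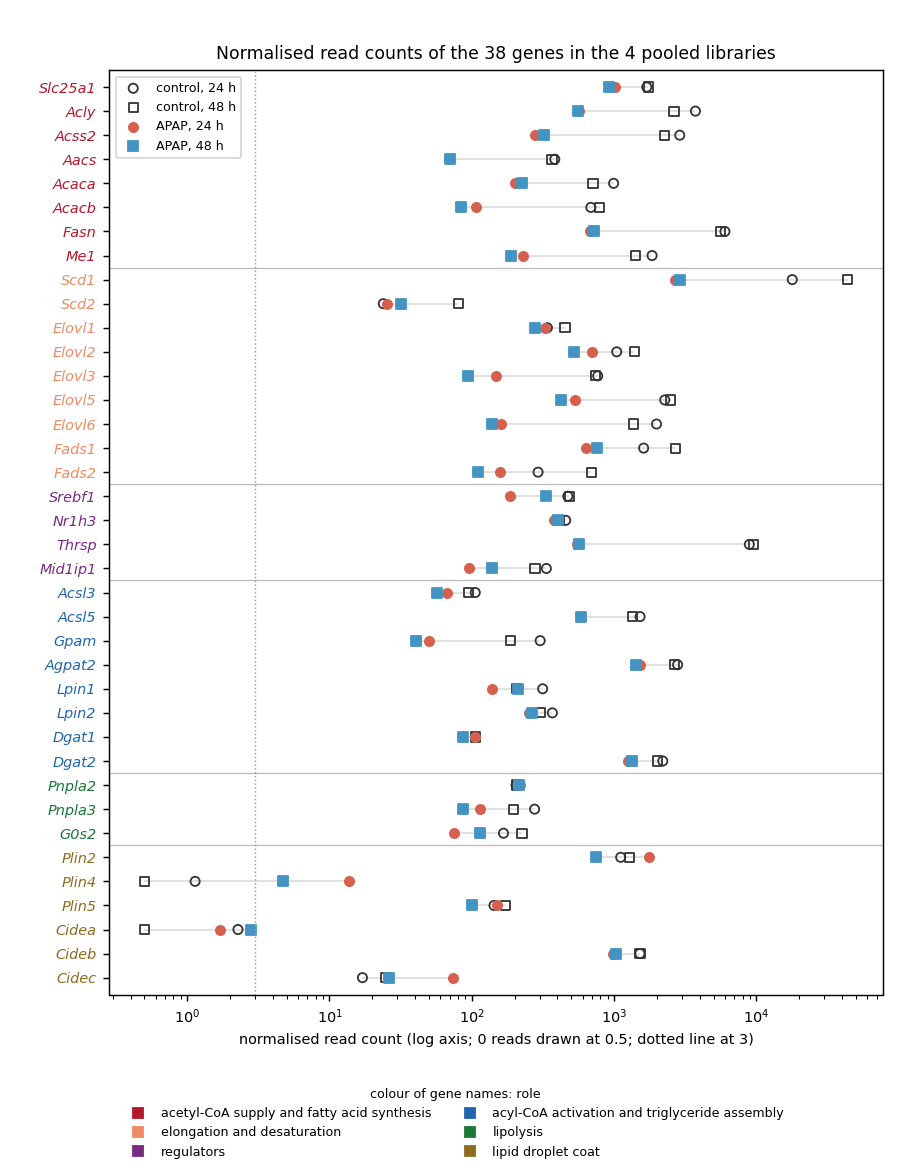
Normalised read count (log axis) of each gene in the 4 pools, with 1 point per pool and the genes grouped by role. For most synthesis genes the APAP pools lie far to the left of both control pools, while the points of Plin2 and Cidec do not separate that way.

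The promoters of 5 genes are shown because these genes stand at the ends of the pattern. Thrsp, Elovl6 and Acss2 were furthest below control at 24 h, Fasn is the synthase itself, and Plin2 was higher at 24 h and lower at 48 h. Each sequence is the window from 250 bases before to 50 bases after the gene start in RefSeq (GRCm38.p6), written 5′ to 3′ on the strand of the gene. Capitals mark CCAAT on either strand (CCAAT or ATTGG) and the E-box CACGTG.
Thrsp, chr7:97417501-97417800, minus strand: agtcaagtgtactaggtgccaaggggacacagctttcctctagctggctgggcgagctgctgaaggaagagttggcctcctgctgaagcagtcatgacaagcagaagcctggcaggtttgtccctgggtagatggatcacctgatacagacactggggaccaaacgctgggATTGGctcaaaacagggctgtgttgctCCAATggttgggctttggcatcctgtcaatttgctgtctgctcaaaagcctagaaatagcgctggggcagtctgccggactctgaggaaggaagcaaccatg
Elovl6, chr3:129532136-129532435, plus strand: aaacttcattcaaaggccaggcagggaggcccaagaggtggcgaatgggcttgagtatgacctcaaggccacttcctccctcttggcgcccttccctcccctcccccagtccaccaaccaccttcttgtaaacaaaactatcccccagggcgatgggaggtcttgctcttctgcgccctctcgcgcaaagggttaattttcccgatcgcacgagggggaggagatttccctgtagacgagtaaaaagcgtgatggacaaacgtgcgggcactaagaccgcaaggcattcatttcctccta
Acss2, chr2:155517793-155518092, plus strand: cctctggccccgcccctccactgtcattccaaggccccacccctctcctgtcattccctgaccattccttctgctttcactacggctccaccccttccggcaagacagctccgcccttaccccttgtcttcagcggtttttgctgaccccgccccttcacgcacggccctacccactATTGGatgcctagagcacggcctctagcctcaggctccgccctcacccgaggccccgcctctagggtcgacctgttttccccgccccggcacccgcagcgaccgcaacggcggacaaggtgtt
Fasn, chr11:120824498-120824797, minus strand: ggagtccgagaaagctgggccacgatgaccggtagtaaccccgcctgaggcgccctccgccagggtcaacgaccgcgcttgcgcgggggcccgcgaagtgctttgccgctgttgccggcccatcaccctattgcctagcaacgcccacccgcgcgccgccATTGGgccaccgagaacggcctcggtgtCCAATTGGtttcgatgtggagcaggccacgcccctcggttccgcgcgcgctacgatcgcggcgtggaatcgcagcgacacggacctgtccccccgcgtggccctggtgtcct
Plin2, chr4:86670010-86670309, minus strand: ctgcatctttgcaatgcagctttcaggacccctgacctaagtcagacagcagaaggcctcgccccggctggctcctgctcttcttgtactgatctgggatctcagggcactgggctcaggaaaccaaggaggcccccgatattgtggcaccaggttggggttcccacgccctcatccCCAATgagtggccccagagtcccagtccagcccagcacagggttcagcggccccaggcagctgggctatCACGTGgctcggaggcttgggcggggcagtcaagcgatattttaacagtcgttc

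Thrsp held CCAAT at 79 and 52 bases before its start, Acss2 at 73 and Plin2 at 73. Fasn held it at 90, 62 and 59 bases before the start, and the last 2 of these matches share bases on opposite strands. Plin2 alone of the 5 held CACGTG, at 4 bases before the start, and the window of Elovl6 held neither. RefSeq windows were matched for 31 of the 38 genes. CCAAT was in 18 of them (58.1%), beside 37.4% of all 32851 promoter windows and 41.1% of genes. Among the genes lower at both time points 10 of 14 with a window held it, and among the other genes 8 of 17. CACGTG was in 4 of 31 (12.9%), beside 7.15% of all windows and 8.09% of genes, namely Elovl5, Lpin2, Plin2 and Slc25a1. TCACNCCAC, a classical form of the sterol regulatory element that SREBP binds, was in 0 of 31, beside 1.24% of all windows and 1.44% of genes. A match is a run of letters, not a binding site, and the motifs were chosen with the counts known.

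Of the 8 genes of acetyl-CoA supply and fatty acid synthesis, 7 were at least 2-fold lower at each time point, and their log2 folds had a median of -2.69, then -2.60. Fasn, fatty acid synthase, had 6013 and 5601 normalised reads in controls and 675 and 720.1 after APAP. The APAP pools lay far below both control pools, 8.91-fold lower at 24 h (interval 8.27 to 9.62) and 7.78-fold lower at 48 h (7.21 to 8.40). Acaca, the acetyl-CoA carboxylase that feeds the synthase in the cytosol, had 992 and 711 normalised reads in controls and 201 and 225 after APAP. It was 4.94-fold lower at 24 h (4.27 to 5.73) and 3.16-fold lower at 48 h (2.72 to 3.68). Acacb, the carboxylase at the outer mitochondrial membrane whose malonyl-CoA restrains fatty acid oxidation, had 687 and 793 normalised reads in controls and 107 and 83.4 after APAP. Unlike Acaca it was further from its control pool at 48 h than at 24 h, 9.51-fold lower (7.62 to 12) after 6.40-fold lower (5.27 to 7.82).

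The routes into cytosolic acetyl-CoA were low too. Acly, ATP citrate lyase, had 3731 and 2635 normalised reads in controls and 571 and 559 after APAP, 6.54-fold lower at 24 h (6.02 to 7.12) and 4.72-fold lower at 48 h (4.31 to 5.17). Acss2, which makes acetyl-CoA from acetate, had 2894 and 2272 in controls and 279 and 323 after APAP, 10.4-fold lower (9.23 to 11.7) and 7.04-fold lower (6.28 to 7.92). For both genes the APAP pools were level with each other within counting error, and the control pool was lower at 48 h than at 24 h. Aacs, which activates the ketone body acetoacetate for lipid synthesis, had 383 and 367 in controls and 69.0 and 70.3 after APAP, 5.55-fold lower (4.35 to 7.17) and 5.21-fold lower (4.05 to 6.79). Me1, malic enzyme, which supplies NADPH, had 1849.7 and 1408 in controls and 227 and 188 after APAP, 8.13-fold lower (7.14 to 9.29) and 7.47-fold lower (6.43 to 8.71). The exception was Slc25a1, the mitochondrial citrate carrier, which stayed short of 2-fold. It had 1697 and 1739 normalised reads in controls and 1022 and 922 after APAP, 1.66-fold lower (1.54 to 1.79) and 1.89-fold lower (1.74 to 2.04).

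**Figure D2:**
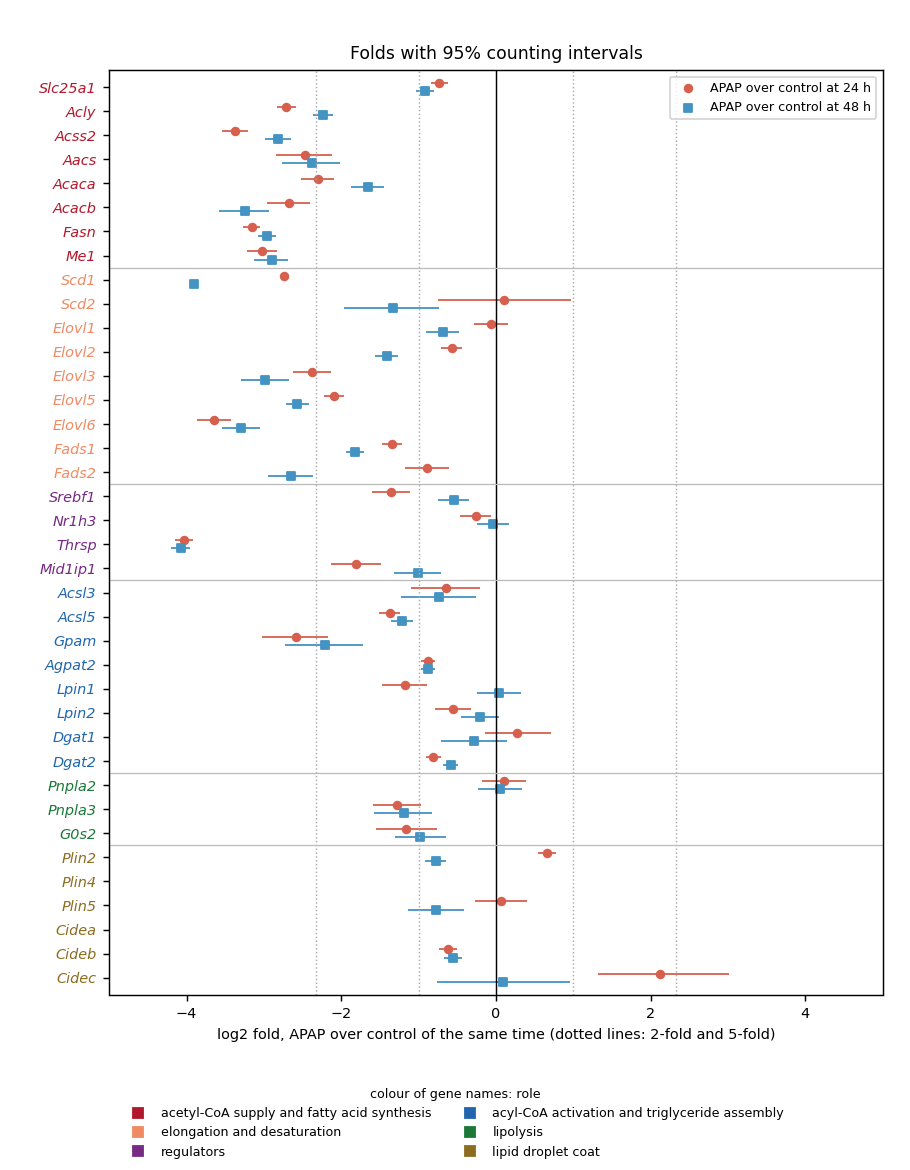
Log2 fold of APAP over control at 24 h and 48 h for each gene tested, with bars for the 95% counting interval and dotted lines at 2-fold and 5-fold. The synthesis genes lie left of the 2-fold line except Slc25a1, and Cidec at 24 h lies to the right of it.

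Among the 9 genes of elongation and desaturation, 5 were at least 2-fold lower at 24 h and 8 at 48 h, and the median log2 fold went from -1.35 to -2.57. Scd1, the main hepatic desaturase that makes oleate from stearate, had 17875 and 43721 normalised reads in controls and 2680.4 and 2913 after APAP. Both APAP pools were low and close to each other, with 1.09 times as many at 48 h (1.03 to 1.14), whereas the control pools were 2.45-fold apart (2.40 to 2.49). Scd1 was 6.67-fold lower at 24 h (6.42 to 6.93) and 15-fold lower at 48 h (14.5 to 15.6), a difference that lay mainly in the control pools. Against the control pool of the other time point, Scd1 was 16.3-fold lower at 24 h and 6.14-fold lower at 48 h.

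Fads2, the desaturase that opens the polyunsaturated pathway, and Scd2, a neighbour of Scd1 on chromosome 19, were the other genes whose control pools were at least 2-fold apart, making 3 of 36 (5.2% of all entries). Fads2 had 292 and 690.5 normalised reads in controls and 158 and 109.7 after APAP, 1.85-fold lower at 24 h (1.53 to 2.25) and 6.29-fold lower at 48 h (5.16 to 7.73). Both APAP pools lay below both control pools, and with the control pools exchanged it was 4.38-fold lower at 24 h and 2.66-fold lower at 48 h. Scd2 had 23.9 and 80.4 in controls and 25.6 and 31.9 after APAP, so only the control pool at 48 h stood out. Its fold was 1.07 at 24 h (0.593 to 1.97) and it was 2.52-fold lower at 48 h (1.66 to 3.90). Against the control pool at 24 h, the APAP pool at 48 h was 1.34-fold higher for Scd2 (0.753 to 2.42), so the call at 48 h rests on 1 control pool. With both control pools summed, its fold was 0.482 at 24 h and 0.602 at 48 h. Fads1, the next desaturase of the polyunsaturated pathway, had 1613 and 2698 in controls and 634 and 761 after APAP, 2.55-fold lower (2.33 to 2.79) and 3.54-fold lower (3.27 to 3.84).

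Elovl6, which lengthens palmitate to stearate, had the largest fold of the elongases. It had 1986 and 1368 normalised reads in controls and 159 and 139.7 after APAP, 12.5-fold lower at 24 h (10.7 to 14.6) and 9.79-fold lower at 48 h (8.26 to 11.7). Elovl3, an elongase of saturated and monounsaturated very long chains, had 767 and 741 in controls and 147 and 93.8 after APAP, 5.21-fold lower (4.40 to 6.19) and 7.90-fold lower (6.40 to 9.85). Elovl5, which lengthens polyunsaturated fatty acids, had 2270.3 and 2500.3 in controls and 532 and 422 after APAP, 4.26-fold lower (3.90 to 4.67) and 5.93-fold lower (5.35 to 6.57). Elovl2 and Elovl1 had the smallest folds of the elongases. Elovl2, which makes the longest polyunsaturated chains, had 1044 and 1384 in controls and 702 and 520.4 after APAP, 1.49-fold lower (1.35 to 1.64) and 2.66-fold lower (2.41 to 2.94). Elovl1, a widely expressed elongase of saturated very long chains, had 339.9 and 452 in controls and 325 and 280.3 after APAP. Its fold at 24 h lay within counting error of 1 (0.957, interval 0.821 to 1.12), and at 48 h it was 1.61-fold lower (1.39 to 1.88).

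The 4 regulators differed from each other. Thrsp, a small nuclear protein induced by thyroid hormone and carbohydrate that promotes lipogenesis, was furthest below control of the list at both time points. It had 8925 and 9591 normalised reads in controls and 545 and 568 after APAP, 16.4-fold lower at 24 h (15.1 to 17.8) and 16.9-fold lower at 48 h (15.5 to 18.4). Mid1ip1, its relative that helps acetyl-CoA carboxylase to polymerise, had 334 and 278 in controls and 95.4 and 138 after APAP, 3.50-fold lower (2.81 to 4.40) and 2.01-fold lower (1.64 to 2.48), the last just inside the threshold and outside it with library totals, at a fold of 0.597. Srebf1, which encodes SREBP-1c, had 473 and 484 in controls and 185 and 331 after APAP. The control pools were level, and the APAP pool at 48 h stood 1.79-fold above the APAP pool at 24 h (1.51 to 2.13), so that Srebf1 was 2.56-fold lower at 24 h (2.17 to 3.03) but 1.46-fold lower at 48 h (1.27 to 1.68). Reads do not tell apart the 2 forms of SREBP-1 that Srebf1 encodes. Nr1h3, the receptor LXRα, was near its control level. It had 457 and 415 in controls and 381 and 404 after APAP, 1.20-fold lower at 24 h (1.05 to 1.38) and 1.03-fold lower at 48 h (0.893 to 1.18).

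Of the 8 genes of acyl-CoA activation and triglyceride assembly, 3 were at least 2-fold lower at 24 h and 2 at 48 h, with median log2 folds of -0.85 and -0.66. Gpam, the mitochondrial acyltransferase of the first step of glycerolipid synthesis, had the largest fold. It had 302 and 187 normalised reads in controls and 50.3 and 40.3 after APAP, 6.02-fold lower at 24 h (4.52 to 8.12) and 4.63-fold lower at 48 h (3.30 to 6.62). Acsl5, an acyl-CoA synthetase, had 1522 and 1349 in controls and 587 and 581 after APAP, 2.59-fold lower (2.36 to 2.85) and 2.32-fold lower (2.11 to 2.56), the last a fold of 0.518 with library totals. Lpin1, a phosphatidate phosphatase that also acts as a coactivator in the nucleus, had 315 and 207 in controls and 139 and 213 after APAP. Its APAP pool at 48 h lay within the range of the control pools, and it was 2.27-fold lower at 24 h (1.86 to 2.77) but at a fold of 1.03 at 48 h (0.845 to 1.25). With the control pools exchanged Lpin1 was 1.49-fold and 1.48-fold lower, and its fold at 24 h was 0.502 when scaled by library totals, so its call at 24 h rests on these choices.

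The other genes of this group stayed short of 2-fold at both time points. Agpat2, the acyltransferase of the step after Gpam, had 2796 and 2645 normalised reads in controls and 1516 and 1436 after APAP, 1.84-fold lower at both time points. Dgat2, which catalyses the last step for newly made fatty acids, had 2199 and 2012 in controls and 1256 and 1341 after APAP, 1.75-fold lower (1.63 to 1.87) and 1.5-fold lower (1.40 to 1.61). Dgat1, the other enzyme of the last step, did not differ beyond counting error. It had 86.4 and 106 in controls and 105 and 87.2 after APAP, with a fold of 1.21 at 24 h (0.904 to 1.64) and 0.821 at 48 h (0.612 to 1.10). Acsl3, the acyl-CoA synthetase of growing droplets, had 106 and 95.4 in controls and 67.3 and 57.2 after APAP, 1.57-fold lower and 1.67-fold lower. Lpin2, another lipin of the liver, shares its entry with a non-coding RNA, so its reads cannot be told apart from those of its partner. That entry had 368 and 305 in controls and 251 and 263 after APAP, 1.47-fold lower (1.25 to 1.72) and 1.16-fold lower (0.977 to 1.37).

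The 3 genes of lipolysis differed among themselves. Pnpla2, the adipose triglyceride lipase that opens the breakdown of stored triglyceride, had 205 and 208 normalised reads in controls and 219.7 and 216 after APAP, with folds of 1.07 (0.884 to 1.31) and 1.04 (0.853 to 1.26) that did not differ from 1 beyond counting error. G0s2, the inhibitor of that lipase, was lower. It had 167 and 225 in controls and 75.0 and 114 after APAP, 2.23-fold lower at 24 h (1.70 to 2.94) and 1.97-fold lower at 48 h (1.57 to 2.48), the latter just outside the threshold. With library totals the fold at 24 h was 0.510, outside it too. Pnpla3, a droplet protein that is itself switched on by SREBP-1c, had 276 and 197 in controls and 114 and 86.3 after APAP, 2.42-fold lower (1.95 to 3.01) and 2.29-fold lower (1.77 to 2.97). Its fold at 24 h was 0.579 with the other control pool, and that at 48 h was 0.526 with library totals.

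The droplet coat stood apart from the synthesis genes at 24 h. Of its 6 genes 4 were tested, 0 were 2-fold lower at either time point, and the log2 folds had a median of 0.36 at 24 h and -0.67 at 48 h. Plin2, the perilipin that coats hepatocyte droplets, had 1113 and 1289 normalised reads in controls and 1758 and 750.1 after APAP. The APAP pools thus lay on opposite sides of the control pools, 1.58-fold higher at 24 h (1.46 to 1.71) and 1.72-fold lower at 48 h (1.57 to 1.88). Cidec, which fuses droplets into larger ones, had 17.1 and 24.7 normalised reads in controls and 74.1 and 26.3 after APAP. A single pool stood out, at a fold of 4.35 at 24 h (2.50 to 8.10), and the fold at 48 h was 1.06 (0.591 to 1.93). Because the control pool at 24 h held 15 reads of Cidec, the interval is wide.

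Plin5, the perilipin that ties droplets to mitochondria, had 143 and 172 normalised reads in controls and 149.9 and 100.3 after APAP, with a fold of 1.05 at 24 h (0.828 to 1.33) and 1.71-fold lower at 48 h (1.33 to 2.21). Cideb, the CIDE protein of hepatocytes that helps to lipidate very low density lipoprotein, had 1519 and 1519 normalised reads in controls and 987 and 1031 after APAP, 1.54-fold lower (1.42 to 1.67) and 1.47-fold lower (1.36 to 1.60). Plin4, a perilipin of fat and muscle, had 1 read and 0 reads in controls, beside 16 and 5 reads after APAP. At 24 h the ratio of normalised counts over that 1 read, without the floor, was 12 with a counting interval of 1.86 to 503. At 48 h the fold against a floor of 3 reads in the control library was 1.46, and the counting interval started at 0.801 and so included 1. Cidea, known from brown fat and fatty liver, had 2 reads and 0 reads in controls and 2 and 3 reads after APAP. All 4 counts lie at or under the floor of 3 reads, so no fold is given and a change was not detectable at this depth.

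**Figure D3:**
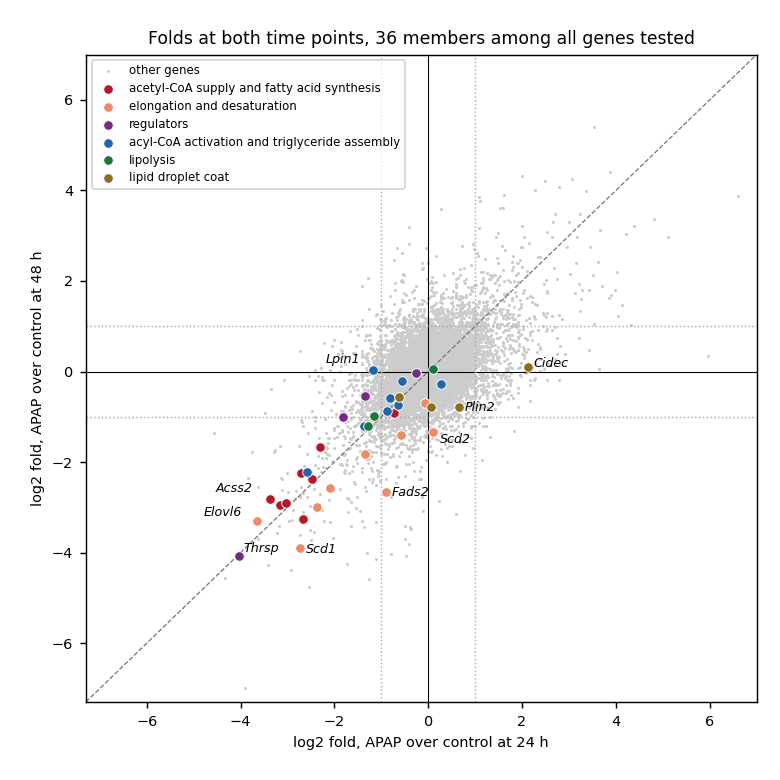
Log2 fold at 48 h against log2 fold at 24 h for the 36 genes tested (coloured by role) and all other entries tested (grey), with the dashed line marking equal folds and dotted lines 2-fold. Most synthesis genes sit near the dashed line far from 0, Scd1 and Fads2 lie below it, and Cidec lies to the right at 24 h alone.

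The folds at 24 h and 48 h were compared by their ratio, with an exact interval from the 4 counts. The interval left out 1 for 23 of the 36 genes (63.9%), against 19.8% of all entries tested. Such intervals narrow as reads increase, so these shares also reflect read depth. Serpina1a, a deeply read hepatocyte marker, left out 1 at a ratio of only 1.04 (1.01 to 1.06). In 10 of the 23 the fold was closer to control at 48 h or turned above it, and in 13 it was lower at 48 h than at 24 h. Thrsp was in neither group, with a ratio of 0.970 (0.863 to 1.09). The first group held Acly, Acss2, Acaca, Fasn, Elovl6, Srebf1, Mid1ip1, Lpin1, Lpin2 and Dgat2, with the largest ratio for Lpin1 at 2.33 (1.76 to 3.09). Srebf1 followed at 1.75 (1.40 to 2.19) and Mid1ip1 at 1.74 (1.28 to 2.37). For Srebf1 the APAP pool alone was higher at 48 h, while for Mid1ip1 the APAP pool was 1.44-fold higher (1.12 to 1.86) and the control pool 1.20-fold lower. The APAP pools of Acly, Acss2, Acaca, Fasn and Elovl6 did not differ from each other beyond counting error, while their control pool was lower at 48 h than at 24 h.

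The other 13 were Slc25a1, Acacb, Scd1, Scd2, Elovl1, Elovl2, Elovl3, Elovl5, Fads1, Fads2, Plin2, Plin5 and Cidec, so that every gene of elongation and desaturation except Elovl6 was among them. Cidec had the smallest ratio, 0.245 (0.104 to 0.572), followed by Fads2 at 0.295 (0.222 to 0.391). For Plin2 the ratio was 0.368 (0.327 to 0.415), with an APAP pool 2.34-fold lower at 48 h than at 24 h (2.16 to 2.55). For Scd1, at a ratio of 0.444 (0.421 to 0.469), it was the control pool that differed. Counting error is the only error in these intervals, and the control pools themselves differed at least 2-fold for 3 genes.

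**Figure D4:**
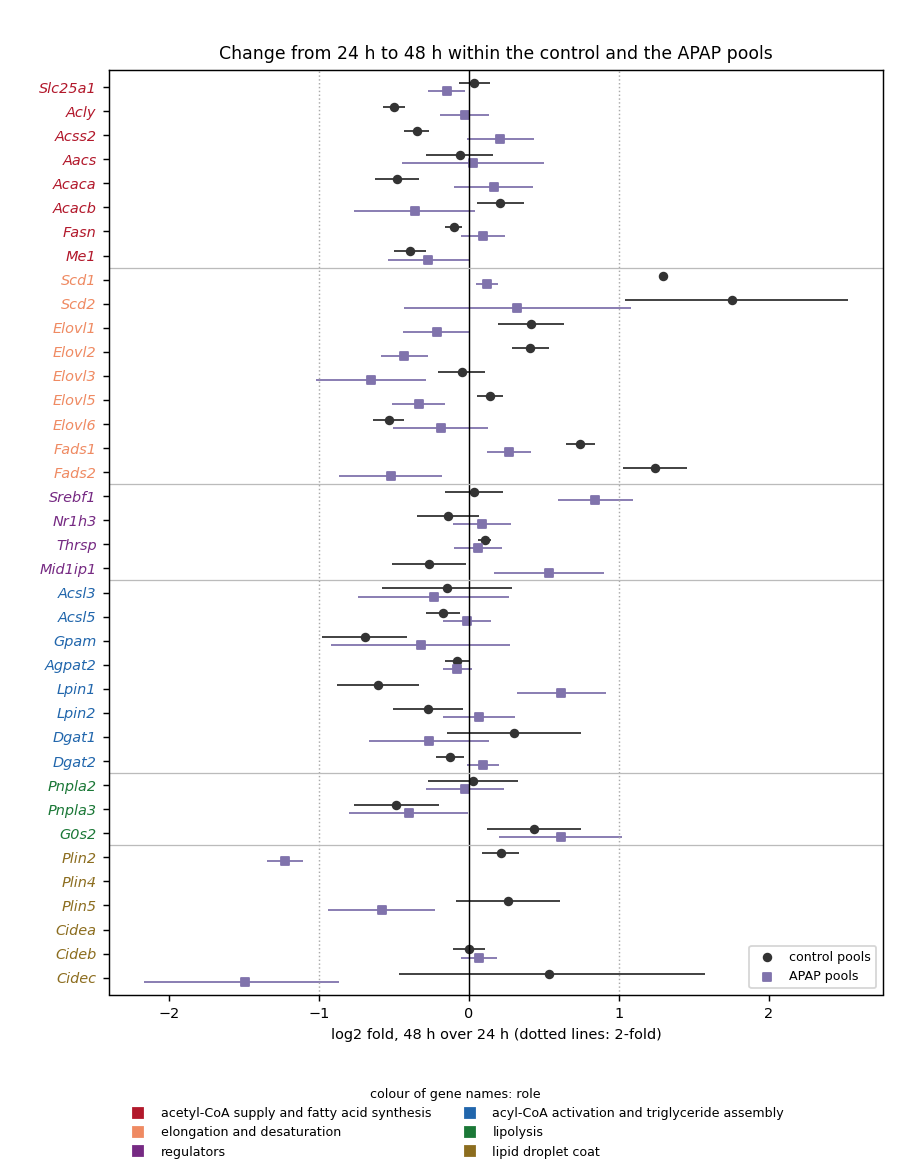
Ratio of normalised counts at 48 h over 24 h in controls and in the APAP pools for the 36 genes tested, on a log2 axis with 95% counting intervals. Plin4 and Cidea are not drawn. The control points of Scd1, Scd2 and Fads2 lie past 2-fold, whereas the APAP points of Plin2 and Cidec lie furthest to the left.

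Another 83 genes of the pathway, listed by function, were counted, and 71 of them were tested. At least 2-fold lower were 14 at 24 h and 18 at 48 h, at least 2-fold higher were 4 at each time point, and 10 were lower at both. Of all entries 5.68% and 5.61% were lower, 5.85% and 5.76% higher, and 2.4% lower at both, so the share of higher genes was that of all entries. The log2 folds had a median of -0.33 at 24 h and -0.43 at 48 h, which lies between the medians of the 36 genes and of all entries. Among them ChREBP (Mlxipl), named above with SREBP-1c, had 458 and 467 normalised reads in controls and 134 and 215 after APAP, 3.43-fold lower at 24 h (2.84 to 4.15) and 2.18-fold lower at 48 h (1.85 to 2.57). Pyruvate kinase (Pklr), the last step of glycolysis, was 4.96-fold and 6.56-fold lower.

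Tecr, the reductase of the elongation cycle, was 2.10-fold lower at 24 h and 2.64-fold lower at 48 h. Acsl1, the main hepatic acyl-CoA synthetase, was 2.40-fold and 2.16-fold lower, and the lipases Ces1d and Aadac were 3.05-fold and 2.34-fold lower at 24 h and 2.73-fold and 2.27-fold lower at 48 h. The largest folds of this list at both time points were those of Fabp5, a fatty acid binding protein, and Fitm1. Fabp5 was 7.78-fold lower at 24 h (5.87 to 10.5) and 9.92-fold lower at 48 h (7.97 to 12.5). Fitm1, which helps droplets to form at the endoplasmic reticulum, had 189 and 203 normalised reads in controls and 32.4 and 7.50 after APAP, 5.83-fold lower (4.08 to 8.53) and 27.0-fold lower (13.4 to 63.5). Fabp1, the abundant fatty acid binding protein of hepatocytes, had 17273 and 23499 in controls and 5968 and 2918 after APAP, 2.89-fold and 8.05-fold lower. None of the 71 genes was called higher at both time points. At 24 h Angptl4, a secreted inhibitor of lipoprotein lipase, was 3.92-fold higher (2.98 to 5.22), and Mbtps2, Lpin3 and Hilpda had folds of 2.10, 2.70 and 2.25, of which the last 2 had intervals that included 1. At 48 h Lpl, the lipoprotein lipase, was 2.64-fold higher (2.12 to 3.31), and Agpat4, Agpat5 and Fabp4 had folds of 2.77, 2.09 and 2.13.

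**Figure D5:**
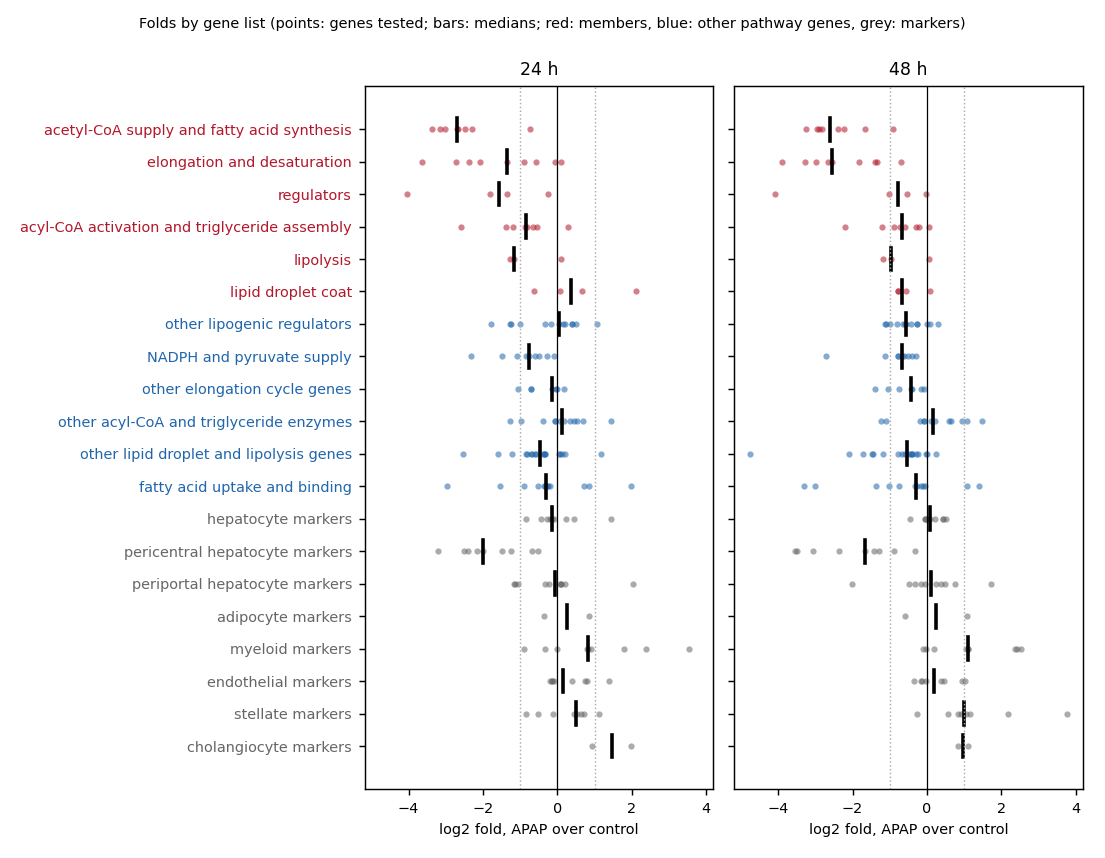
Log2 folds at 24 h and 48 h of every gene tested in each role group, in the other pathway lists and in the cell type marker lists, with 1 point per gene and a bar at the median. The synthesis group has medians of -2.69 and -2.60, the other pathway lists lie nearer to 0, and the pericentral markers have medians of -2.00 and -1.66.

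Some counts may hold reads of more than 1 gene. The entries of Acly, Acss2, Me1, Elovl6 and Acsl3 name further genes beside the one given (Mir7116 with Acly, Mipep-ps and Gm20637 with Acss2, Gm38230 with Me1, Gm43072 with Elovl6 and Utp14b with Acsl3). The last 300 bases of Acaca, Elovl6 and Pnpla3 each had a stretch of 100 bases or longer that matched a predicted gene with no less than 95% identity (Gm5182, Gm11295 and Gm49513), of which Gm11295 had at most 1 read in any library. The last exons of Elovl1, Elovl3, Srebf1, Mid1ip1, Acsl5, Agpat2, Plin4 and Cideb overlap a gene on the other strand, and that of Scd2 overlaps Mir5114 on its own strand. Whether strand was used in counting is not given in the sources used here, so reads of such partners may be included.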

How the data were processed

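The deposited table gives, as the authors made it, the count of reads per gene and library, without normalization. Per the labels and the study's methods, RNA was DNase-treated, libraries were made with MACE-kit v.2 from 2 µg of pooled RNA, duplicate reads were removed by molecular identifiers, reads were trimmed with cutadapt and mapped to mm10, and HTSeq counted them; the aligner and tool versions are not given in the sources used here. The same table holds counts scaled to library totals, ratios, p-values and false discovery rates computed by the authors, which were not used.

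Counts were divided by median-of-ratios size factors (DESeq2 1.42.0, R 4.3.3; 0.880 to 1.17). Counts under 3 reads were set to 3 in the numerator and the denominator of a fold, except in the ratio of Plin4 at 24 h, with no pseudocount. Entries with a mean of at least 10 normalised reads were tested. Treatment was tested over both time points with edgeR 4.0.16 (quasi-likelihood, TMM), 2 APAP against 2 control pools, with and without the time point as a term; this test was added after seeing the data. The DESeq2 test was not run. Intervals (Python 3.11.15, scipy 1.17.1) are 95% Clopper-Pearson intervals of the read share, or exact conditional intervals for ratios of folds. Fold recovery was tested on simulated data. Alternatives were edgeR 4.0.16 TMM factors, library totals, a floor of 10 reads, a pseudocount of 1 without a floor, the other or both control pools, no filter, and calls whose interval must also leave out 1. Every listed gene is accounted for. Of other pathway genes, those at least 2-fold changed at both time points and the 2 with the largest change at each time point are named, and genes higher at 1 time point were named after their values were seen. The values of 1 gene that this rule names are not reported here. The genes and lists were chosen with earlier results of these data known. Promoter windows are from RefSeq (GRCm38.p6) and gene ends from GENCODE (GRCm38).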

Additional observations from a re-analysis of the deposited data

Results flagged for a closer look

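Plin2 was singled out because its folds pointed in opposite directions at the 2 time points. The fold of APAP over control was 1.58 at 24 h and 0.582 at 48 h. With 1 pool per group the difference was not tested against the spread between mice. The ratio of the folds, 0.368 (0.327 to 0.415), lies outside counting error only.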

How the results depend on the processing

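Each pool was 1 library, so no spread between mice is known. The edgeR test and its alternatives were chosen after seeing the data. The number of genes at least 2-fold lower ranged from 18 to 21 at 24 h and from 17 to 20 at 48 h over the alternatives, the number 5-fold lower from 9 to 11 and from 9 to 12, and the median log2 fold from -1.46 to -1.04 and from -1.20 to -0.94. Library totals in place of size factors moved the median log2 fold of all entries by 0.19 at 24 h and by 0.27 at 48 h. That scaling brought the folds of Elovl1 at 24 h (1.09), Nr1h3 at 48 h (1.17) and Lpin2 at 48 h (1.04) above 1. Without the filter on low counts, 2 genes instead of 1 were at least 2-fold higher at 24 h, since Plin4 was then included. With the control pool of the other time point, the fold of Scd2 at 48 h turned to 1.34, and no other gene called at least 2-fold lower or higher changed direction in any alternative. In the edgeR test of both APAP against both control pools, leaving out each pool in turn gave 16 to 25 lower genes and 0 to 1 higher genes, the fewest without either control pool and the 1 higher gene, Cidec, without the APAP pool of 48 h, while calls over all entries ranged from 141 lower and 48 higher (without the control pool of 48 h) to 690 and 383 (without the APAP pool of 48 h); the lone pool of an arm is then assumed to vary like the others. With the time point as a replicate block, 27 genes in place of 23 were lower and 1 in place of 0, Cidec, was higher, and the calls over all entries went from 520 to 1020 lower and from 261 to 594 higher. Reads under the floor of 3 limit Plin4 and Cidea.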
